A study of Mus musculus with 9 samples.

Results

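Genes of the G1/S transition and DNA replication were followed in the mouse embryonic fibroblast line NIH 3T3, an established cell line, in which either of the E2 enzymes of the NEDD8 pathway had been targeted by a short hairpin RNA (shRNA). The set held 55 genes, listed by name, in 7 roles: origin licensing (12 genes), helicase activation (7), polymerases (8), the clamp, its loader, single-strand binding and Okazaki fragment processing (11), nucleotide supply (5), chromatin (6) and G1/S regulators with the checkpoint (6). Each gene was read through 1 probe set, the one with the highest mean log2(signal + 16) over the 9 arrays. A probe set assigned to that gene alone was used for 54 of the 55, out of 18193 genes read in this way. Expression of Chaf1a was not analysed here, and it enters below only through its promoter window. Of the 54 members, 54 passed the filter on low signals, against 10613 of the 18193 genes.

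The 3 groups held 3 arrays each, of cells carrying a retroviral vector with a control shRNA, an shRNA against Ube2m or an shRNA against Ube2f. RNA was taken 5 days after transduction, and 6 ug of total RNA was labelled. The growth label of all 9 samples, controls included, describes the cells as expressing Ube2f, and the sources used here do not say whether an added construct is meant. The labels do not say whether more than 1 hairpin was used per target, so an effect of the hairpin and of its target cannot be told apart. Replicates are called biological, with no word on what separated them, so the p-values measure the spread between these arrays. The title of the series concerns which cullins each pairing of an E2 with a RING protein modifies with NEDD8, and the comparisons below ask whether replication transcripts differed when either E2 was targeted.

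Before S phase the origin recognition complex, Cdc6 and Cdt1 load the MCM helicase onto origins in an inactive form, a step called licensing, and geminin (Gmnn) restrains it afterwards. At the G1/S boundary, cyclin-dependent kinases and the kinase Cdc7 with its partner Dbf4 turn the helicase on together with Cdc45 and the GINS complex, and polymerases, clamp and ligase then copy the DNA. Many of these genes are transcribed by E2F factors, which pocket proteins of the RB family, Rbl1 among them, hold back in G1. Cullin-RING ligases, the enzymes that NEDD8 activates, are known to mark Cdt1, Orc1, E2f1, Chek1, Cdc25a and Cdc6 for destruction. Arrays measure RNA, so a change in the stability of these proteins would not be seen in the values below.

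The sequences next to the gene starts were searched for letters that many of the members share. Whether known regulation by E2F factors played a part in listing the members is not stated, so the shares below describe this list. Promoter windows from RefSeq (build GRCm38.p6), each running from 250 bases before to 50 after a gene start, were matched by symbol for 47 of the 55 members, with 58 windows in all. The E2F motif was searched on both strands as TTCCCGC and in the further forms of TTGGCGC, then of TTCGCGC, and lastly of TTGCCGC, and matches may overlap one another. At least 1 form was found for 32 of the 47 genes (68.1%), against 10.9% of all 27025 genes with such windows and 20.2% of the 8656 tested genes that have one. By windows the share was 62.1% in the members and 9.57% of all 32851. The box bound by the factor NF-Y, CCAAT on both strands, was in 55.2% of member windows against 37.4% of all and 38.3% of those of tested genes. The CHR form TTTGAA of late cell-cycle promoters, on both strands, was in 15.5%, below the 17.9% of all windows and above the 11.8% of those of tested genes. A match is a description of letters and not of a bound site. Shown here is, for each role, a match in a member with the most matches in a window (Lig1 tied with Rfc1 and Rfc3, Rrm1 with Rrm2, and Cdc25a with E2f3), followed by those of Rbl1 and E2f2, members that passed the test in the comparisons with control. Each stretch runs 5′ to 3′ on the gene's strand, with the letters of the match shown in capitals and up to 10 bases on either side. Letters held only by another match are in lower case, as for Mcm6 and for Cdc25a, whose 2 matches overlap.
Mcm6 (licensing, chr1:128359735-128359761, match starting 46 bases before the gene start): ttggacgggtTTGGCGCgaagtagctc
Cdc7 (helicase activation, chr5:106964516-106964542, 35 bases before): gcatcccgcgGCGGGAAgaggtgcgcc
Pola1 (polymerases, chrX:93632260-93632286, 121 bases before): atgcactcccGCGGGAAggccgggggc
Lig1 (Okazaki processing, chr7:13278842-13278868, 26 bases after): gccaaagtgcGCGCGAAatctgtgtgg
Rrm1 (nucleotide supply, chr7:102441618-102441644, 67 bases before): ggagaactcgTTCCCGCcaggtccgct
Dnmt1 (chromatin, chr9:20952765-20952791, 158 bases before): caagatgccaGCGCGAAcagctccagc
Cdc25a (G1/S regulators, chr9:109875503-109875529, 66 bases before): tgaattccgtTTGGCGCcaactaggaa
Rbl1 (G1/S regulators, chr2:157204535-157204561, 17 bases before): gaaggcgattTTCGCGCgctttgtcgc
E2f2 (G1/S regulators, chr4:136172304-136172323, 40 bases after): ggcatatagtTTGGCGCtaa

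Polymerases, chromatin and the G1/S regulators shared the highest value among the roles, at 5 of 6 genes each (83.3%), and helicase activation had the lowest (1 of 4, or 25.0%). Mcm6 held 5 matches in its window, the most of any member. Of the 6 members that passed the test in any comparison, Rbl1 and E2f2 held a match, while the windows of Mcm2, Orc2, E2f1 and Dbf4 held none of these letters. The 250 bases before the starts of Rbl1, which has a match, and Mcm2, which has none, are set side by side, since both fell with Ube2m shRNA.
Rbl1 (chr2:157204535-157204784, minus strand): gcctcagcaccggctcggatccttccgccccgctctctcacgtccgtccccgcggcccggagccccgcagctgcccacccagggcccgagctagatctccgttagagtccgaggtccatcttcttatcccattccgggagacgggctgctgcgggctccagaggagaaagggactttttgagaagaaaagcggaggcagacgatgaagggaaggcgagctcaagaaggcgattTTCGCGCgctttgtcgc
Mcm2 (chr6:88898781-88899030, minus strand): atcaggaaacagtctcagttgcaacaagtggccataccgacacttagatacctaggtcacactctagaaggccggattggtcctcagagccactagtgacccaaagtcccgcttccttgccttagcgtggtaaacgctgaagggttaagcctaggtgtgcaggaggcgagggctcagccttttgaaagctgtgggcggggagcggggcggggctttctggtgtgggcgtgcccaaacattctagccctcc

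**Figure D1:**
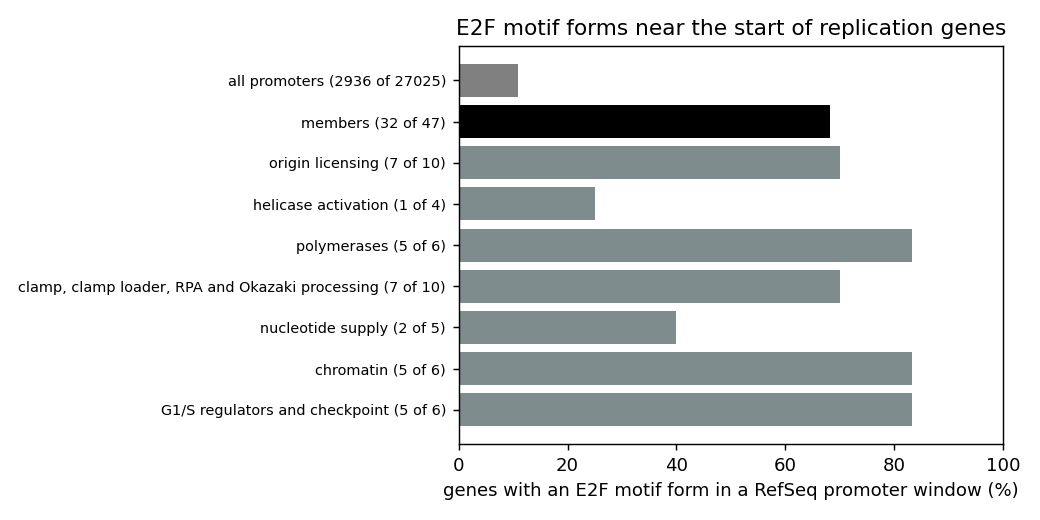
Share of genes (in percent) with at least 1 E2F motif form in a RefSeq promoter window, for all genes with windows, for the 47 members matched and for each role; the number of genes with a match and the number matched stand beside each label. The bar of the members reaches 68.1% and that of all genes 10.9%, and the role bars run from 25.0% to 83.3%.

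Array quality bears on what follows. Fibroblast markers were at or above the low-signal level for 13 of 13 genes, against 4 of 11 for macrophages, 3 of 11 for epithelium and 0 of 10 for endothelium. Of the 13 fibroblast markers, 12 lay below control with Ube2m shRNA and 4 fell (Col5a1, Fbln2, Lox and Thy1; 30.8%, against 9.71% of all genes tested), while with Ube2f shRNA Pdgfra rose and Lox fell, and 5 were lower with Ube2m than with Ube2f shRNA (38.5% against 15.8%). The summed epithelial signal, most of it from Krt14, was 3314 to 5418 in control arrays, 5854 to 6602 in Ube2m arrays and 2756 to 4239 in Ube2f arrays. The part of either marker list in the results was not tested. Ube2f RNA was lower by a log2 value of -4.11 with its own hairpin (SE 0.12, limma adjusted p = 7.45e-10), whereas the reduction of Ube2m was not checked here. The median signal was 53.1 to 58.3 on replicates 1 and 2 of the groups and 63.8 to 73.2 on replicate 3, so values from replicates 1 and 2 and from replicate 3 are given separately where a result turns on them. Control replicate 1 had a 3′ to 5′ beta-actin ratio of 1.82, against 1.24 to 1.35 on the other 8 arrays. The probe sets used for Mcm3, Mcm5, Mcm7, Pold1, Fen1, Rrm2, Dnmt1 and Chek1 are of designs that can also match other transcripts.

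Few replication transcripts passed the test with either hairpin. Values are MAS5 signals on a linear scale, and a log2 fold change is the difference of group means of log2(signal + 16), which understates the change of low signals. A gene was called where limma's p-value was under 0.05 after Benjamini-Hochberg adjustment, which covered the 10613 genes of that comparison. With Ube2m shRNA, 3 of the 54 members were called against control (5.56%), where 9.71% of all genes tested were (3.59% higher and 6.12% lower). E2f2 rose, and Mcm2 and Rbl1 fell. With Ube2f shRNA a single member, Orc2, was called and fell (1.85% of the members, against 5.19% of all genes tested, of which 2.23% higher and 2.96% lower). Set directly against each other, the targeted groups differed in 4 members (7.41%, against 15.8% of all genes, 6.37% higher and 9.38% lower), with Dbf4 and E2f2 higher and E2f1 and Rbl1 lower with Ube2m shRNA. Both comparisons with control use the same 3 control arrays. Centring the arrays on the median of all probe sets left 0, 0 and 1 of these calls (Rbl1 between the targeted groups), and averaging the probe sets of each gene left 0, 0 and 1 (E2f2).

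The differences were also small in size. The median log2 fold change of the members was -0.03 with Ube2m shRNA, beside -0.04 over all genes tested, and -0.02 beside 0.01 with Ube2f shRNA. The Ube2m median turned to 0.05, beside 0.04 over all genes, when arrays were centred on the median of the tested genes, a setting chosen after seeing the data. A 95% interval lying wholly within 1.5-fold of control in either direction was found for 45 of the 54 members with Ube2m shRNA (83.3%, against 52.9% of genes tested) and for 48 with Ube2f shRNA (88.9%, against 56.7%). The members were also measured with less spread than genes at large, with a median SD within groups of 0.16 on the log2 scale against 0.19, and at higher signals, with a median of mean log2 values of 11.08 against 9.57. At an unadjusted p under 0.05 the members numbered 11 with Ube2m shRNA (3 higher, 8 lower, 20.4% against 24.8% of genes tested) and 5 with Ube2f shRNA (9.26% against 20.2%). The 3 arrays of a group lay wholly outside those of control for 13 members with Ube2m shRNA (24.1% against 29.7%) and 7 with Ube2f shRNA (13.0% against 23.2%).

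**Figure D2:**
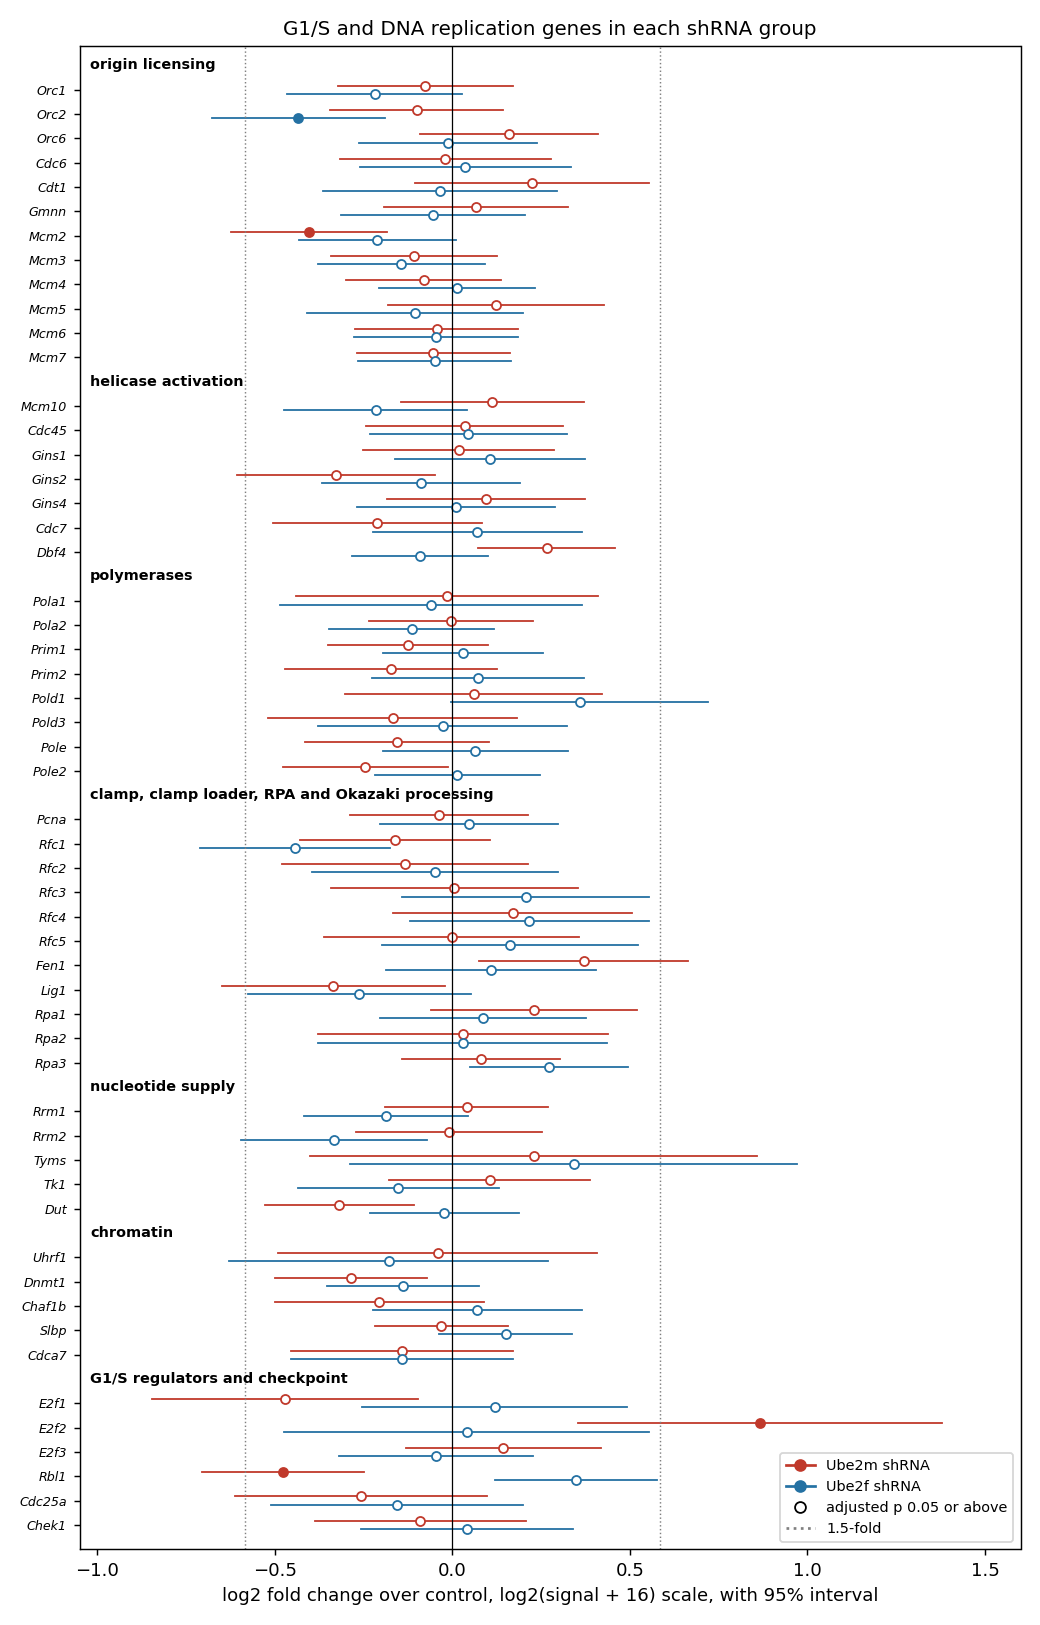
Log2 fold change over control with its 95% interval for each of the 54 members measured, grouped by role, in Ube2m shRNA (red) and Ube2f shRNA (blue) arrays; filled points passed the adjusted threshold of 0.05 and dotted lines mark 1.5-fold. Filled points stand at E2f2, Mcm2 and Rbl1 for Ube2m shRNA and at Orc2 for Ube2f shRNA, and the intervals of 45 and 48 members stay between the dotted lines.

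Replicate 3 of both targeted groups stood apart from the other 7 arrays in these genes. Measured as the median log2 deviation of the members from each gene's mean over the 9 arrays, replicate 3 stood at -0.12 with Ube2m and -0.13 with Ube2f shRNA. Replicates 1 and 2 stood at 0.01 and 0.06 with Ube2m and at 0.01 and 0.10 with Ube2f shRNA. The control arrays were at 0.04, 0.02 and -0.01, and over all genes tested the 9 arrays kept to -0.03 to 0.05. The median fold change of the members over control was accordingly 0.00 in replicates 1 and 2 and -0.09 in replicate 3 with Ube2m shRNA, and 0.01 and -0.09 with Ube2f shRNA. Hybridization spikes read 3069 and 2718 on control replicates 1 and 2 against 3846 on control replicate 3, and 4014 to 4625 on replicates 1 and 2 of both targeted groups against 2687 and 2712 on their replicate 3. The part of these differences in the members' values was not tested.

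**Figure D3:**
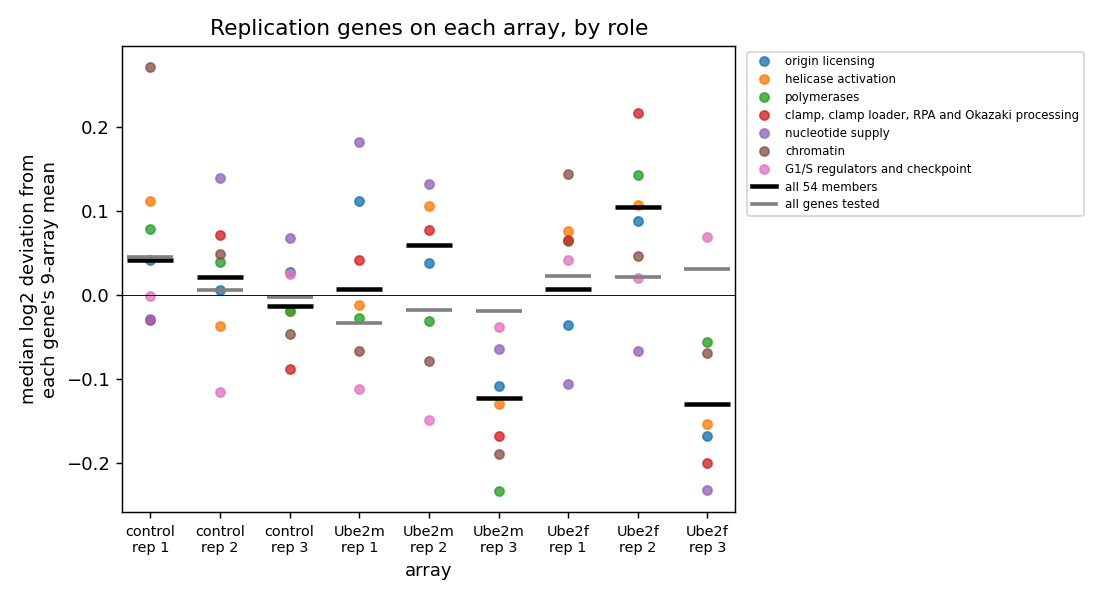
Median log2 deviation from each gene's 9-array mean on each array, for the genes of each role (coloured points), the 54 members together (black bars) and all genes tested (grey bars). The black bars fall to -0.12 and -0.13 on replicate 3 of the Ube2m and Ube2f groups and lie between -0.01 and 0.10 on the other 7 arrays.

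Among the licensing genes, Mcm2 fell with Ube2m shRNA and Orc2 fell with Ube2f shRNA, and the other 10 passed in neither comparison. Each call was 8.33% of the role, against 9.71% of all genes tested with Ube2m and 5.19% with Ube2f shRNA. Mcm2, a subunit of the MCM helicase, read 4443, 3879 and 4004 in control, 3030, 3137 and 3121 with Ube2m shRNA, and 3303, 3922 and 3426 with Ube2f shRNA. Every Ube2m array lay under every control array, while the Ube2f arrays overlapped the controls. Mean signals were 4109 ± 296 in control and 3096 ± 57.7 with Ube2m shRNA (SD, n = 3 arrays each), which gave a log2 fold change of -0.40 (SE 0.10, limma adjusted p = 0.0267) that was -0.43 in replicates 1 and 2 and -0.36 in replicate 3. A second Mcm2 probe set was lower too, by a log2 value of -0.34. The call was lost without control replicate 1 (limma adjusted p = 0.097), without any single Ube2m array (0.0531 to 0.106), with the beta-actin ratio in the model (0.103) and with either centring of the arrays (0.138 and 0.0738). Averaging the Mcm2 probe sets (0.0529) and fitting without the intensity trend (0.0548) also ended it.

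The other 5 subunits of the MCM ring passed in no comparison with the probe sets used. Their log2 fold changes with Ube2m shRNA were -0.11 for Mcm3, -0.08 for Mcm4, 0.12 for Mcm5, -0.04 for Mcm6 and -0.05 for Mcm7, with 95% intervals reaching from -0.34 (Mcm3) to 0.43 (Mcm5). Mean Mcm5 signal, for example, was 11730 ± 151 in control and 12850 ± 1646 with Ube2m shRNA. With Ube2f shRNA the same 5 subunits were at -0.14, 0.01, -0.11, -0.05 and -0.05, with intervals from -0.41 (Mcm5) to 0.23 (Mcm4). Another Mcm3 probe set, at a mean of 3947 in control, was at -0.39 with Ube2m and -0.32 with Ube2f shRNA. The remaining Mcm3 probe sets were at -0.12, 0.12 and 0.17 with Ube2m and -0.17, 0.01 and -0.07 with Ube2f shRNA. Other Mcm7 probe sets were at -0.17, -0.17 and -0.13 with Ube2m shRNA. Second probe sets of Mcm4 and Mcm6 were at -0.03 and -0.04 in that comparison. Another Mcm5 probe set, at a mean of 5452 in control and not of a design that can match other transcripts, was at 0.07 with Ube2m, -0.38 with Ube2f shRNA and 0.45 between the targeted groups, beside 0.23 for the one used. With it in place, when probe sets of less specific designs were left out, Mcm5 was called between the targeted groups. Mcm2 itself was at -0.21 with Ube2f shRNA (adjusted p = 0.268), and the direct difference between the targeted groups, -0.19, did not pass either (adjusted p = 0.237).

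Orc2, a subunit of the origin recognition complex, read 1438, 1688 and 1781 in control, 1613, 1530 and 1419 with Ube2m shRNA, and 1266, 1162 and 1180 with Ube2f shRNA. The Ube2f arrays were the 3 lowest of the 9. The mean fell from 1636 ± 178 to 1203 ± 55.6 with Ube2f shRNA, a log2 fold change of -0.43 (SE 0.11, limma adjusted p = 0.0443), and replicates 1 and 2 gave -0.36 where replicate 3 gave -0.59. The remaining probe sets of Orc2 moved by log2 values of -0.03 and -0.10 in this comparison, and the mean of its probe sets gave -0.19 (adjusted p = 0.499). The call was lost without control replicate 2 or 3, Ube2m replicate 1 or 2, or any Ube2f array (adjusted p = 0.0702 to 0.121), and it held under 9 of 24 alternative settings, the lowest share among the calls given here. Against Ube2m shRNA the Orc2 difference, 0.33 higher with Ube2m, missed the threshold (adjusted p = 0.0639).

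Orc1, Cdc6 and Cdt1, licensing factors whose proteins are known ligase substrates, were not called in any comparison of the main fit. In replicates 1 and 2 alone, Cdt1 was called higher with Ube2m shRNA. Cdt1 read 8472, 8699 and 8131 in control, 11082, 10576 and 8178 with Ube2m shRNA, and 8573, 9939 and 6540 with Ube2f shRNA. Replicates 1 and 2 with Ube2m shRNA were above every other array and replicate 3 was not. The log2 fold change of Cdt1 with Ube2m shRNA was 0.23 (95% interval -0.10 to 0.56, limma adjusted p = 0.396), made up of 0.33 in replicates 1 and 2 and 0.01 in replicate 3, and a second probe set gave 0.02. Cdc6 was at -0.02 with Ube2m and 0.04 with Ube2f shRNA, with intervals of -0.32 to 0.28 and -0.26 to 0.33. Orc1 was at -0.08 (interval -0.32 to 0.17) and -0.22 (-0.47 to 0.03). Gmnn, the inhibitor of Cdt1, was at 0.07 and -0.05, and Orc6 at 0.16 and -0.01.

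Of the 7 helicase activation genes, Dbf4 alone was called, and only in the direct comparison of the targeted groups. That was 14.3% of the role, against 15.8% of all genes tested. Dbf4, which activates the kinase Cdc7, read 7197, 6912 and 7421 in control, 8707, 8778 and 8398 with Ube2m shRNA, and 7070, 6487 and 6652 with Ube2f shRNA. All 3 Ube2m arrays stood above the other 6. The signal was 8628 ± 202 with Ube2m against 6736 ± 300.2 with Ube2f shRNA, a log2 difference of 0.36 (SE 0.09, limma adjusted p = 0.0161), with 0.37 in replicates 1 and 2 and 0.34 in replicate 3. Against control the Ube2m difference was 0.27 (adjusted p = 0.0801) and the Ube2f difference -0.09. The direct call was lost without Ube2m replicate 1 or 2 or Ube2f replicate 2 (adjusted p = 0.0501 to 0.0754). A second Dbf4 probe set lay below the low-signal level, at 34.6 to 53.1, and averaging it in turned the difference to -0.07 (adjusted p = 0.903).

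Cdc7 itself was called in no comparison. It was at -0.21 with Ube2m (adjusted p = 0.37) and 0.07 with Ube2f shRNA, from means of 739 ± 104 in control, 634 ± 46.8 and 775 ± 88.9. In the GINS complex, Gins2 had the largest difference with Ube2m shRNA, -0.33 (adjusted p = 0.133), with all 3 arrays (2049, 2121 and 1670) under the controls (2390, 2684 and 2250). Gins1 and Gins4 were at 0.02 and 0.09. Mcm10, which helps the activated helicase leave the origin, had the largest difference of this role with Ube2f shRNA, -0.22 (adjusted p = 0.342), and Cdc45 was at 0.04 in both comparisons.

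No polymerase or primase subunit was called by limma, with 1 (Pole2) with Ube2m and 0 with Ube2f shRNA at an unadjusted p under 0.05, where 24.8% and 20.2% of all genes tested had one. With Ube2m shRNA 7 of the 8 were below control, as were 5899 of the 10613 genes tested, with a median of -0.14 beside -0.04 over all genes, and Pole2, a subunit of the leading-strand polymerase, was lowest at -0.25 (adjusted p = 0.178). Its signals were 2293, 2408 and 2261 in control and 2055, 2062 and 1761 with Ube2m shRNA, and the groups did not overlap. The median of the role was -0.05 in replicates 1 and 2 and -0.20 in replicate 3. With Ube2f shRNA the median was 0.02, and the largest difference was 0.36 for Pold1, the catalytic subunit of the lagging-strand polymerase (95% interval -0.00412 to 0.72, adjusted p = 0.253). Pold1 read 1153, 932 and 979 in control and 1407, 1638 and 970 with Ube2f shRNA, so the difference lay in replicates 1 and 2 (0.54) and not in replicate 3 (-0.01). A second Pold1 probe set at about the same level, with a control mean of 1061, did not follow. It was at -0.08 with Ube2f and -0.24 with Ube2m shRNA, beside 0.06 with Ube2m shRNA for the one used. In control the Pold1 probe set used was no brighter, at a mean of 1021. It was brighter with Ube2m (1062 against 893) and Ube2f shRNA (1338 against 1002), so its choice by mean signal rested on the targeted groups. The Pold1 difference of 0.36 thus depends on which probe set is read. Primase subunits Prim1 and Prim2 and the subunits Pola1, Pola2, Pold3 and Pole were between -0.17 and 0.07 in both comparisons with the probe sets used. With Ube2f shRNA other probe sets were at -0.38 and 0.21 for Pold3 and at 0.23 for Prim2.

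The clamp Pcna, its loader, the RPA complex and the Okazaki enzymes held no member called by limma either, with 2 at an unadjusted p under 0.05 in each comparison with control (Fen1 and Lig1 with Ube2m, Rfc1 and Rpa3 with Ube2f shRNA). That was 18.2% of the role in each, against 24.8% and 20.2% of all genes tested. Pcna, with means of 18120 ± 1040 in control arrays, 17700 ± 1624 in Ube2m arrays and 18800 ± 2376 in Ube2f arrays, was at -0.04 (95% interval -0.29 to 0.21) and 0.05 (-0.20 to 0.30). Rfc1, the large subunit of the clamp loader, had the lowest value of any member with Ube2f shRNA, -0.44, and just missed the threshold (adjusted p = 0.0604), which it passed with replicate 3 as a term. It read 1534, 1325 and 1428 in control, 1230, 1308 and 1283 with Ube2m, and 1034, 901 and 1225 with Ube2f shRNA, so that both targeted groups lay under the controls without overlap. Of its other probe sets, 1 was also lower with Ube2f shRNA (-0.31) and the other, at a mean of 267 in control, was higher (0.55). The small loader subunits Rfc2, Rfc3, Rfc4 and Rfc5 were between -0.13 and 0.22 in both comparisons with the probe sets used. With Ube2m shRNA a second Rfc3 probe set of similar level was at -0.31, beside 0.005 for the one used. Dimmer Rfc2 probe sets were at -0.50 and -0.24, and a second Rfc4 probe set at 0.09. With Ube2f shRNA these other probe sets were between -0.10 and 0.21.

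Fen1, the nuclease that trims Okazaki flaps, and Lig1, the ligase that seals them, stood on opposite sides of control with Ube2m shRNA. Fen1 was at 0.37 (adjusted p = 0.112), from 3552, 3418 and 3307 in control to 5001, 4464 and 3888, with 0.15 on a second probe set, and Lig1 at -0.34 (adjusted p = 0.173). Control replicate 1 read Lig1 at 3757, against 2643 and 2353 on the other controls, and the difference was -0.48 in replicates 1 and 2 and -0.05 in replicate 3. Rpa3, the small RPA subunit, was at 0.27 with Ube2f shRNA (adjusted p = 0.154), with its 3 arrays above the controls, and Rpa1 and Rpa2 were at 0.09 and 0.03. With Ube2m shRNA Rpa1, Rpa2 and Rpa3 were at 0.23, 0.03 and 0.08. A second Rpa2 probe set, at a control mean of 1212 beside 1632 for the one used, was at 0.46 with Ube2m and 0.39 with Ube2f shRNA.

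No nucleotide supply member was called by limma, and 1 in each comparison with control had an unadjusted p under 0.05 (Dut with Ube2m, Rrm2 with Ube2f shRNA). That was 20.0% of the role in each, against 24.8% and 20.2% of all genes tested. Dut, the dUTPase that keeps uracil out of DNA, read 4783, 4809 and 4576 in control, 3899, 3957 and 3512 with Ube2m, and 4616, 4989 and 4360 with Ube2f shRNA. Its Ube2m arrays were the 3 lowest of the 9, at a log2 difference from control of -0.32 (95% interval -0.53 to -0.11, limma adjusted p = 0.0579). That difference was -0.29 in replicates 1 and 2 and -0.38 in replicate 3. Dut was called with Ube2m shRNA under quantile normalization and in the upper range of signals. Another Dut probe set, at a mean of 194 in control, went the other way, at 0.18 with Ube2m, -0.29 with Ube2f shRNA and 0.47 between the targeted groups, where the one used gave -0.30 (adjusted p = 0.0569). Rrm2, the regulatory subunit of ribonucleotide reductase, was at -0.01 with Ube2m and -0.33 with Ube2f shRNA (limma adjusted p = 0.139). Under quantile normalization it was the member called with Ube2f shRNA, and Orc2 was not. Rrm2 read 8598, 9881 and 10070 in control and 7760, 8378 and 6578 with Ube2f shRNA. Its other probe sets were lower with Ube2f shRNA too, by log2 values of -0.40 and -0.49. Between the targeted groups Rrm2 was at 0.32 (adjusted p = 0.0929), and it was called when probe sets of less specific designs were left out. Rrm1, the catalytic subunit, was at 0.04 and -0.19, and Tk1, the thymidine kinase of the salvage pathway, at 0.11 and -0.15. Tyms, the thymidylate synthase, had the widest interval of this role, -0.29 to 0.97 around 0.34 with Ube2f shRNA, at signals of 76.7 to 203.1 near the low-signal level of 53.8.

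Of the chromatin genes, 5 were measured and none was called by limma, with 1 (Dnmt1) and 0 at an unadjusted p under 0.05. Those were 20.0% and 0.0% of the genes measured, against 24.8% and 20.2% of all genes tested. Dnmt1, the maintenance DNA methyltransferase, was furthest from control with Ube2m shRNA at -0.29 (adjusted p = 0.0909), from 3158, 2792 and 2724 in control to 2317, 2357 and 2418 without overlap, and at -0.14 with Ube2f shRNA. With the probe sets used, Uhrf1, which brings Dnmt1 to newly copied DNA, was furthest with Ube2f shRNA at -0.18 (95% interval -0.63 to 0.27). It was at -0.04 with Ube2m shRNA, and a dimmer probe set was at 0.02 with Ube2f and 0.35 with Ube2m shRNA. Slbp, the histone mRNA binding protein, had the smallest spread of any member, with means of 5013 ± 49.9, 4906 ± 64.7 and 5567 ± 211 and differences of -0.03 and 0.15. Chaf1b, a subunit of the histone chaperone CAF-1, was at -0.21 and 0.07, and Cdca7 at -0.14 in both comparisons.

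Among the G1/S regulators, Rbl1 fell and E2f2 rose with Ube2m shRNA, the 2 largest differences of any member in that comparison and between the targeted groups. These calls were 33.3% of the 6 genes of the role, against 9.71% of all genes tested. Rbl1, a pocket protein gene, read 1260, 1316 and 1310 in control, 969, 909 and 901 with Ube2m, and 1662, 1503 and 1810 with Ube2f shRNA. No array of any group overlapped another group, with Ube2m lowest and Ube2f highest. Means were 1296 ± 31.0, 926 ± 36.9 and 1658 ± 154. The fall with Ube2m shRNA was -0.48 on the log2 scale (SE 0.11, limma adjusted p = 0.0154), while the difference with Ube2f shRNA, 0.35, did not pass (adjusted p = 0.0807) but was called with replicate 3 as a term in the model. Set directly against each other, the targeted groups differed by -0.83 (SE 0.11, limma adjusted p = 0.000273), with -0.74 in replicates 1 and 2 and -0.99 in replicate 3. A second probe set above the low-signal level, at a mean of 226 in control, showed little of this, with -0.07, 0.12 and -0.19 in the 3 comparisons. Averaging its probe sets ended both calls (adjusted p = 0.356 against control and 0.42 between targeted groups). The call against control was also lost without Ube2m replicate 2 (0.0703) and with arrays centred on all probe sets (0.0545), and the direct call held when any of the 9 arrays was left out.

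E2f2, a transcription factor that activates S-phase genes, was the member that rose with Ube2m shRNA. It read 69.1, 117 and 95.3 in control, 199.5, 199.8 and 148 with Ube2m, and 79.7, 92.6 and 116 with Ube2f shRNA, so that the 3 Ube2m arrays were the highest. Means of 93.8 ± 24.0 and 182 ± 29.8 gave a log2 fold change of 0.87 (SE 0.24, limma adjusted p = 0.0379), and the direct difference from Ube2f shRNA was 0.83 (adjusted p = 0.0323). It was 1.02 in replicates 1 and 2 and 0.56 in replicate 3 against control, and 1.08 and 0.32 against Ube2f shRNA. A second E2f2 probe set moved the same way, by 0.58 and 0.87. Averaging the E2f2 probe sets (limma adjusted p = 0.0613) or centring arrays on all probe sets (0.103) ended the call against control. The direct call held with averaging (0.0205) but not with this centring (0.0771). In control the probe set used was no brighter than the second, at means of 93.8 and 97.0. It was brighter with Ube2m (182 against 155) and Ube2f shRNA (96.0 against 78.7), so its choice by mean signal rested on the targeted groups. These are low signals: with 64 in place of 16 added before the logarithm the value against control was 0.65. The call against control was lost without control replicate 1 or 3 or Ube2m replicate 1 or 2 (adjusted p = 0.0609 to 0.141), with the beta-actin ratio in the model (0.145), with quantile normalization (0.0683) and with no filter on low signals (0.0978), and the direct call without replicate 1 or 2 of either targeted group (0.0836 to 0.121).

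E2f1, another activating E2F whose protein is a known ligase substrate, read 766, 492 and 522 in control, 345, 462 and 448 with Ube2m, and 635, 604 and 661 with Ube2f shRNA. The Ube2m arrays were below the other 6. Between the targeted groups the difference was -0.59 (SE 0.17, limma adjusted p = 0.035), with -0.61 in replicates 1 and 2 and -0.54 in replicate 3. Against control it was -0.47 with Ube2m (adjusted p = 0.109) and 0.12 with Ube2f shRNA. A second probe set above the low-signal level did not follow (0.08 between the targeted groups), averaging turned the difference to 0.06 (adjusted p = 0.906), and the call was lost without Ube2m replicate 1 or 2 or any Ube2f array (0.0571 to 0.149), and with no filter on low signals (0.0602). E2f3 was at 0.14 with Ube2m and -0.05 with Ube2f shRNA.

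The checkpoint kinase gene Chek1 and the phosphatase gene Cdc25a were not called. Chek1 was at -0.09 with Ube2m (95% interval -0.39 to 0.21) and 0.04 with Ube2f shRNA (-0.26 to 0.34), where other probe sets above the low-signal level were at -0.11 and -0.52. Cdc25a, which removes inhibitory phosphates from cyclin-dependent kinases, was at -0.26 (-0.61 to 0.10) and -0.16 (-0.51 to 0.20), with control replicate 1 at 947 against 598 and 644 on the other controls. Of the 6 genes named as encoding ligase substrates, E2f1 was thus called in the direct comparison, where 15.8% of all genes tested were called. Cdt1, Orc1, Cdc6, Chek1 and Cdc25a were called in no comparison of the main fit, and Cdt1 was called with Ube2m shRNA in replicates 1 and 2 alone.

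**Figure D4:**
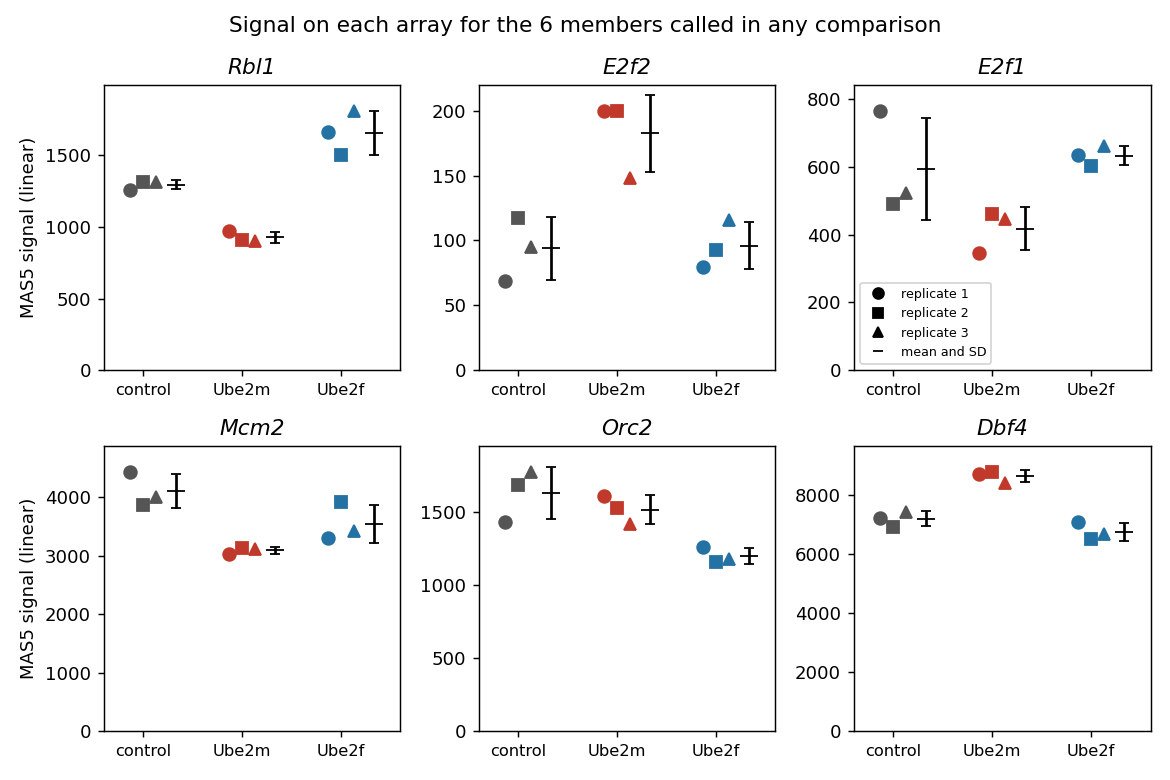
MAS5 signal (linear scale, from 0) on each of the 9 arrays for the 6 members that passed the adjusted threshold in any of the 3 comparisons, with marker shape for the replicate number and the mean and SD of 3 arrays beside each group. Rbl1 separates all 3 groups, at 901 to 969 with Ube2m, 1260 to 1316 in control and 1503 to 1810 with Ube2f shRNA, and the Orc2 arrays of Ube2f shRNA are the lowest of their panel.

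Between the targeted groups as a whole, the median difference of the 54 members was -0.05, beside -0.04 over all genes tested. A 95% interval within 1.5-fold was found for 45 of them (83.3%, against 50.0% of genes tested). Arrays of the targeted groups did not overlap for 20 members (37.0%, against 34.4%), of which 7 were higher and 13 lower with Ube2m shRNA. At an unadjusted p under 0.05 there were 10 members (18.5%, against 28.7%). The G1/S regulators held 3 of the 4 calls and helicase activation the other, and no licensing, polymerase, clamp, nucleotide or chromatin member was called. Those calls were 50.0% and 14.3% of the 2 roles, against 15.8% of all genes tested.

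Related genes outside the 55 were grouped by function in the same way. Of 31 other replication genes, 2 fell with Ube2m shRNA (6.45% called, against 9.71% of all genes tested): Dscc1, part of an alternative clamp loader, from 1220 ± 37.1 to 894 ± 73.3 (log2 fold change -0.44, limma adjusted p = 0.0222), and Rnaseh2b, a subunit of RNase H2, by -0.38 (adjusted p = 0.0389). With Ube2f shRNA 1 fell (3.23% against 5.19%), Pold4, the small subunit of polymerase delta, from 2069 ± 159 to 1212 ± 152 (-0.77, adjusted p = 0.00607). Pold4 was the gene of this list with the largest difference between the targeted groups, 0.98 (adjusted p = 0.000415). The medians of the list were 0.01 and -0.06.

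Of 16 other nucleotide supply genes, 2 rose with Ube2m shRNA (12.5% called, against 9.71% of all genes): Gart of purine synthesis (0.48, limma adjusted p = 0.038) and Nme1, a nucleoside diphosphate kinase (0.91, adjusted p = 0.0326), and limma called none with Ube2f shRNA, where 4 had an unadjusted p under 0.05. Nme1 had a wide control spread, at 9580 ± 4302 against 16810 ± 1426. Among 14 other S-phase chromatin genes 1 was called in each comparison with control (7.14%, against 9.71% and 5.19%): Rbbp4, a histone-binding subunit of CAF-1, rose with Ube2m shRNA (0.37, adjusted p = 0.0463) and Hmgb2 rose with Ube2f shRNA (0.51, adjusted p = 0.0475). Of 21 S-phase repair and checkpoint genes 2 were called with Ube2m shRNA (9.52%, against 9.71%): Exo1, an exonuclease, rose (0.53, adjusted p = 0.011) and Hus1, part of the checkpoint clamp, fell (-0.40, adjusted p = 0.0494). limma called none with Ube2f shRNA, where 4 had an unadjusted p under 0.05.

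The E2F and RB network around the members had 30 of 31 genes tested, of which 2 were called in each comparison with control (6.67%, against 9.71% and 5.19% of all genes). With Ube2m shRNA Lin54 of the DREAM complex rose (0.60, limma adjusted p = 0.00908) and the CDK inhibitor gene Cdkn1a fell (-0.39, adjusted p = 0.0349). With Ube2f shRNA Skp2, an F-box protein, rose (0.39, adjusted p = 0.0352) and Dtl, the receptor through which a cullin ligase recognises Cdt1, fell from 1066 ± 56.4 to 574 ± 68.0 (-0.88, adjusted p = 0.00113). Between the targeted groups 8 of the 30 were called (26.7%, against 15.8% of genes tested), 4 in each direction. Ccne1, Ccna2, Rb1 and Dtl were higher with Ube2m shRNA, and Rbl2, Skp2, Cdkn1b and Cul4a were lower. Among the pocket proteins, then, Rbl1 (-0.83) and Rbl2 (-0.79, adjusted p = 0.00348) were lower and Rb1 (0.50, adjusted p = 0.0256) was higher with Ube2m than with Ube2f shRNA. In bulk RNA a change in the share of cells in S phase and a change in RNA per cell cannot be told apart.

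For 19 G2/M genes given for comparison, the median with Ube2m shRNA was 0.29, beside -0.04 over all genes tested. Of the 19, 18 were above 0, as were 4714 of all 10613 genes. Only 2 were called (10.5% against 9.71%): Kif20a and Kif2c, both motor proteins of mitosis, at 0.53 and 0.52. At an unadjusted limma p under 0.05 there were 11, all higher (57.9%, against 24.8% of genes tested). The Ube2m arrays lay wholly above control for 14 (73.7%, where 29.7% of genes tested did not overlap in either direction). With Ube2f shRNA the median was 0.01 and limma called none, with 2 at an unadjusted p under 0.05 (10.5%, against 20.2%). Between the targeted groups 6 of the 19 were called (31.6% against 15.8%), Bub1b, Cdk1, Kif11, Kif20a, Plk1 and Top2a, which were higher with Ube2m shRNA. The median of the 54 replication and G1/S members over the same arrays was -0.03 and -0.02.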

How the data were processed

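Expression was measured on 9 one-colour Affymetrix arrays. The deposited values are read as intensity, a linear signal per probe set that MAS5 made, per the submitters' processing notes, with a version and settings not given in the sources used here. Each array's mean signal was 500.0 once the top and bottom 2% of 45101 probe sets were set aside, so 1 factor had scaled each array. The number of arrays limits the precision.

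The analysis used log2(signal + 16). Probe sets of controls (64), of several genes (932) and of no named gene (9160) were left out, and 34741 of the 34945 others carried a name in the mouse reference used. Genes were tested at a mean log2 value of at least 6.12 (a signal of 53.8), the median over probe sets that are not controls. limma 3.58.1 in R 4.3.3 fitted 1 mean per group to all 9 arrays (lmFit, contrasts.fit, eBayes with an intensity trend and 6.55 prior degrees of freedom). P-values are two-sided, and intervals use the fit's standard error (SE) and degrees of freedom. The procedure was tested on simulated data.

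The members and gene lists were chosen with earlier results of these data known. Named were members past the threshold in any comparison, members without overlap in both comparisons with control, the largest difference of each role, ligase substrates, and the smallest p-values of the other lists. Further members, and list genes called between the targeted groups, were named after their values were seen. Of 126 probe sets of the members, 105 were above the low-signal level, and 37 members had more than 1 of these. Alternatives covered the constant, the filter, the scaling, the probe set, the replicate number, the variance model, the beta-actin ratio and leaving out each array.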

Additional observations from a re-analysis of the deposited data

Results flagged for a closer look

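In 4 members the effects of the targeting hairpins differed by a direct limma test of Ube2m against Ube2f shRNA, over 3 arrays each. The Ube2m minus Ube2f log2 difference was -0.83 for Rbl1, 0.83 for E2f2, -0.59 for E2f1 and 0.36 for Dbf4. For Rbl1 the targeted groups stood on opposite sides of control, -0.48 and 0.35, of which the first passed against control. E2f2 stood at 0.87 and 0.04, E2f1 at -0.47 and 0.12, and Dbf4 at 0.27 and -0.09.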

How the results depend on the processing

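Counts of called members depended on how replicate 3 was handled. They were 3 with Ube2m, 1 with Ube2f and 4 between the targeted groups, and became 8, 3 and 10 with the replicate number as a block, 9, 4 and 12 with replicate 3 as a term, and 10, 2 and 10 in replicates 1 and 2 alone. With Ube2m the block added Dbf4, Dnmt1, Dut, Fen1 and Gins2, and the term Pole2 as well. With Ube2f the block added Rbl1 and Rfc1, and the term Rrm2 as well. In replicates 1 and 2 alone, Cdt1, Dbf4, Dnmt1, Dut, Fen1, Lig1 and Rpa1 were added with Ube2m. The calls there with Ube2f were Pold1 and Rfc1, without Orc2. Between the targeted groups the block added Dut, Mcm10, Orc2, Pole2, Prim2 and Rrm2, and the term Gins2 and Rrm1 as well. The numbers were not taken to pair the arrays, since the deviations of control and Ube2m replicate 1 correlated at -0.005 over genes and those of control and Ube2f replicate 1 at 0.015. Other same-numbered pairs of replicates 1 and 2 were at 0.157 to 0.211, and differently numbered ones at 0.0882 to 0.276. The replicate 3 arrays did deviate together across groups, at 0.317, 0.349 and 0.557, and the main fit had no term for this. The block, the term and replicates 1 and 2 alone raised the calls over all genes from 1031 to 1866, 2118 and 1747 with Ube2m, from 551 to 1225, 1461 and 1121 with Ube2f, and from 1672 to 2493, 2714 and 2032 between the targeted groups. Centring arrays on the median of all probe sets gave 0, 0 and 1 members, averaging probe sets 0, 0 and 1, the beta-actin covariate 1 with Ube2m, and no filter 0 with Ube2f and 2 between the targeted groups. With Ube2f shRNA the count was also 0 with tested-gene centring (chosen after seeing the data), with only the 2 groups compared and without the intensity trend, and 2 in the upper range of signals. Quantile normalization kept the counts at 3 with Ube2m and 1 with Ube2f, but with Dut in place of E2f2 and Rrm2 in place of Orc2. Leaving out single arrays gave 0 to 4, 0 to 2 and 1 to 6 members. Averaging reversed Dbf4 (-0.0683) and E2f1 (0.0561) between the targeted groups; both have a probe set near background. Centring moved the direction of calls over all genes with Ube2m from 381 higher and 650 lower to 534 and 432 (tested genes) or 124 and 401 (all probe sets), with Ube2f from 237 and 314 to 50 and 172 (all probe sets), and between the targeted groups from 676 and 996 to 856 and 745 (tested genes). Of 24 alternatives, the Rbl1 call held in 21 against control and 23 between targeted groups, Dbf4 in 19, Mcm2 in 15 and Orc2 in 9. Of 23, E2f2 held in 14 against control and 17 between targeted groups, and E2f1 in 13. Median shifts of the members moved by less than the spread between replicates throughout, at -0.08 to 0.01, -0.06 to 0.03 and -0.10 to 0.02 with single arrays left out. Signals near background limit E2f2 and Tyms most.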
